A study of Tupaia belangeri chinensis with 12 samples.

Results

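The Sonic hedgehog pathway genes described here are 10 genes whose symbols in the deposited tables equal GAS1, BOC, CDON, PTCH1, HHIP, SMO, SUFU, GLI3, GLI2 and GLI1. They were chosen by name out of 81418 gene IDs. Each symbol matched a single gene ID, and 9 of the 10 passed the filter for the test across genes, for which 14101 genes were kept. HHIP stayed below it.

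The animal is the Chinese tree shrew (Tupaia belangeri chinensis). Layers of its fetal cortex were cut by laser from Nissl-stained cryosections, and their poly(A) RNA was sequenced. All 12 libraries carry the age of 37 embryonic days, and no treatment, genotype or allele is labelled. There were 3 libraries each of the cortical plate (CP), which holds postmitotic neurons, the outer subventricular zone (OSVZ), the inner subventricular zone (ISVZ) and the ventricular zone (VZ), which lies along the ventricle and holds the cell bodies of apical radial glia. OSVZ, ISVZ and VZ are the germinal layers. Whether the libraries of a layer stem from different animals is not labelled, so the p-values speak only of the spread among these libraries, which may be technical.

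Hedgehog ligands bind PTCH1, which otherwise holds the membrane protein SMO inactive. The co-receptors GAS1, BOC and CDON help the ligand to bind. Active SMO gathers in the primary cilium and releases the GLI transcription factors from SUFU, so that GLI2 acts as an activator and less GLI3 is cut to its repressor form. GLI1, PTCH1 and HHIP are themselves transcribed in response, and PTCH1 and HHIP then limit the signal. In the embryonic mouse cortex, GLI3 is known for its role in dorsal patterning, and raised hedgehog signalling is known to expand basal progenitors. The ligand gene SHH was not analysed here.

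Levels are in scaled FPKM, which is fragments per unit of transcript length and of library total, scaled by 1 factor per library. FPKM is a level per length, but a comparison between genes also rests on the gene models, which were not checked. Levels of different genes are therefore set side by side only as listed. Log2 differences are of scaled FPKM plus a pseudocount of 1, given ± SE of the model, and understate the change of low genes. They were tested with limma at an adjusted p-value threshold of 0.05 over 14101 genes. The files give no read depth. Library sums of deposited FPKM ranged from 244666 to 276629, and 12157 to 13417 genes reached 1 FPKM. Of 3 layer markers, PAX6 and MEF2C followed the labels of CP and VZ. PAX6, a radial glia transcription factor, averaged 0.434 ± 0.295 in CP, 15.4 ± 2.76 in OSVZ, 19.6 ± 7.42 in ISVZ and 28.6 ± 7.45 in VZ, and MEF2C, a neuronal transcription factor, averaged 148 ± 14.0 in CP, 13.5 ± 6.47 in OSVZ, 10.8 ± 3.31 in ISVZ and 7.80 ± 1.72 in VZ (SD, n = 3 each). EOMES, which marks intermediate progenitors of the subventricular layers, averaged 0.231 ± 0.123 in CP, 44.1 ± 9.51 in OSVZ, 54.4 ± 21.5 in ISVZ and 57.3 ± 13.4 in VZ, so it was not highest in a subventricular layer, and these 3 markers do not tell OSVZ from ISVZ. TTR, the defining transcript of choroid plexus, reached 529, 2514 and 33.8 in VZ libraries 1 to 3, and at most 48.4 in the other 9.

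All 9 tested genes of the pathway were lower in CP than in the germinal layers, and all 10 had their highest mean in VZ and their lowest in CP. For 9 of the 10, each CP library lay below every one of the 9 germinal libraries, which held for 19.4% of all tested genes. In CP minus the mean of the germinal layers, 28.7% of all tested genes were called lower, and the 9 tested members were called lower. Of these, 6 reached the filter through the germinal layers alone, with no CP library at 1 scaled FPKM. They were GAS1, BOC, PTCH1, GLI3, GLI2 and GLI1. Their calls say little beyond that, and the same holds for their adjusted p-values of CP minus the germinal mean below. In bulk tissue, fewer expressing cells and less RNA per cell cannot be told apart. The sizes differed widely: as a ratio of mean levels, GLI3 was 85.3-fold lower in CP, GAS1 27.4-fold and SUFU 1.496-fold. The ratio of GLI3 rests on a CP mean of 0.0856, far below the filter of 1 scaled FPKM. GLI1 and GLI2 had lower CP means still, at 0.0154 and 0.0270, and no ratio is given for them.

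**Figure D1:**
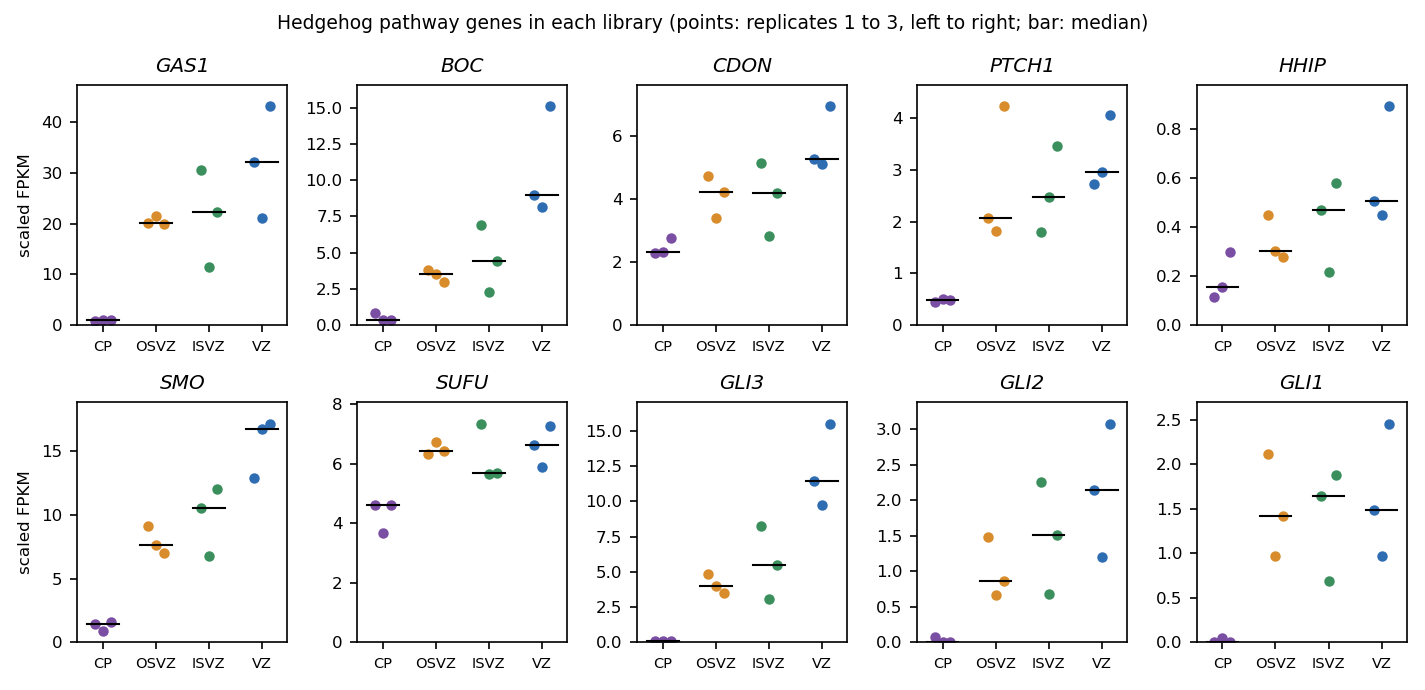
Scaled FPKM of the 10 hedgehog pathway genes in each library, with CP, OSVZ, ISVZ and VZ from left to right in each panel, points for libraries and bars for layer medians. The CP points lie below every germinal point for 9 genes, while the 3 CP points of HHIP, at 0.115 to 0.296, overlap the germinal ones.

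The co-receptors GAS1, BOC and CDON were all lower in CP, by very different amounts. By log2 difference with a pseudocount of 1, GAS1 was the steepest of the 9 tested genes, but GLI3 was steeper with a pseudocount of 0.1, at -5.12 against -4.55 for GAS1. GAS1, a GPI-anchored co-receptor (TSDBGID.14382, chromosome 2, 176287709 to 176289177 in the coordinates of the deposited tables, whose build is not given in the sources used here), was at 0.728, 0.996 and 0.981 in CP libraries 1 to 3. It was at 20.1, 21.6 and 19.9 in OSVZ, 30.6, 11.5 and 22.3 in ISVZ, and 32.2, 21.0 and 43.1 in VZ. It had the highest germinal level of the 10 genes, and its lowest germinal library was far above its highest CP library, while OSVZ, ISVZ and VZ overlapped. Its means were 0.902 ± 0.151 in CP, 20.5 ± 0.949 in OSVZ, 21.5 ± 9.54 in ISVZ and 32.1 ± 11 in VZ (SD, n = 3 each). The log2 difference of CP from the germinal mean was -3.68 ± 0.248 (limma, adjusted p = 5.78e-07).

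BOC, an immunoglobulin-family co-receptor (TSDBGID.4282, chromosome 1, 29850135 to 29937578), was at 0.822, 0.374 and 0.384 in CP. Its libraries were at 3.82, 3.50 and 2.99 in OSVZ, 6.94, 2.30 and 4.42 in ISVZ, and 8.96, 8.13 and 15.1 in VZ. All VZ libraries lay above all ISVZ and OSVZ libraries, and ISVZ and OSVZ overlapped. BOC was 11.8-fold lower in CP than in the germinal layers, with a log2 difference of -2.08 ± 0.241 (limma, adjusted p = 2.99e-05).

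CDON, the close relative of BOC (TSDBGID.5508, chromosome 10, 15041814 to 15099656), was at 2.30, 2.32 and 2.77 in CP. It was at 4.75, 3.41 and 4.23 in OSVZ, 5.15, 2.83 and 4.21 in ISVZ, and 5.26, 5.11 and 6.95 in VZ. The lowest ISVZ library was just above the highest CP library, so the layers were close to touching. CDON was 1.89-fold lower in CP than in the germinal layers, with a log2 difference of -0.68 ± 0.147 (limma, adjusted p = 0.00232). CDON and SUFU were the 2 genes of the set at 1 or more in all 12 libraries.

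The receptor PTCH1 (TSDBGID.13533, chromosome 2, 178680077 to 178763288) was at 0.448, 0.514 and 0.483 in CP. It was at 2.07, 1.82 and 4.23 in OSVZ, 1.80, 2.48 and 3.46 in ISVZ, and 2.73, 2.96 and 4.07 in VZ. The 3 germinal layers overlapped, and the highest library of all was OSVZ 3. PTCH1 averaged 0.482 ± 0.0331 in CP, 2.71 ± 1.32 in OSVZ, 2.58 ± 0.837 in ISVZ and 3.25 ± 0.714 in VZ (SD, n = 3 each), and the log2 difference of CP from the germinal mean was -1.34 ± 0.195 (limma, adjusted p = 1.61e-04).

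HHIP, which binds the ligands and holds them from the receptor (TSDBGID.17342, chromosome 26, 31498125 to 31802867), reached 1 in no library. It was at 0.115, 0.157 and 0.296 in CP, 0.449, 0.30 and 0.279 in OSVZ, 0.470, 0.215 and 0.579 in ISVZ, and 0.507, 0.449 and 0.892 in VZ. CP overlapped OSVZ and ISVZ but not VZ. Its F statistic was set against all 369600 ways to deal the libraries out to 4 layers of 3, and this exact permutation test, which has no direction, gave p = 0.0505, which did not pass the threshold. It gave 0.0460 with a pseudocount of 0.1 and 0.0406 on FPKM as deposited, so the call turns on the scale.

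SMO, the transducer of the signal (TSDBGID.23185, chromosome 6, 56833578 to 56859134), was at 1.47, 0.924 and 1.58 in CP. Its libraries were at 9.15, 7.67 and 7.05 in OSVZ, 10.5, 6.77 and 12.1 in ISVZ, and 12.9, 16.7 and 17.2 in VZ. CP was lowest and VZ highest with no overlap, and OSVZ and ISVZ overlapped. SMO averaged 1.32 ± 0.349 in CP, 7.96 ± 1.08 in OSVZ, 9.79 ± 2.73 in ISVZ and 15.6 ± 2.37 in VZ (SD, n = 3 each). The log2 difference of CP from the germinal mean was -2.33 ± 0.162 (limma, adjusted p = 7.14e-07), and in the level SMO was 8.41-fold lower in CP.

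SUFU, which holds GLI proteins in check (TSDBGID.8664, chromosome 15, 12943788 to 13091164), was the most even of the 10 across layers. It was at 4.61, 3.68 and 4.62 in CP, 6.33, 6.71 and 6.43 in OSVZ, 7.34, 5.66 and 5.68 in ISVZ, and 6.62, 5.90 and 7.25 in VZ. The CP libraries lay below the rest and the germinal layers overlapped. The log2 difference of CP from the germinal mean was -0.49 ± 0.101 (limma, adjusted p = 0.00182). The F test over the 4 layers, passed by SUFU with all libraries, gave an adjusted p = 0.0645 (limma) without CP 2.

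In CP, SUFU had the highest level of the 10 genes, at 4.30 ± 0.542 scaled FPKM, and GLI1, GLI2 and GLI3 the lowest, whereas in VZ GAS1, SMO, GLI3 and BOC, at 32.1, 15.6, 12.2 and 10.7, all had higher means than SUFU, at 6.59 ± 0.679 (SD, n = 3 each).

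GLI3, the main GLI repressor (TSDBGID.22578, chromosome 6, 24338732 to 24649070), had a steep layer difference. It was at 0.0731, 0.0857 and 0.0981 in CP, 4.84, 3.97 and 3.53 in OSVZ, 8.23, 3.06 and 5.45 in ISVZ, and 11.4, 9.73 and 15.5 in VZ. VZ lay above ISVZ and OSVZ without overlap, and CP lay below them all. GLI3 averaged 0.0856 ± 0.0125 in CP, 4.11 ± 0.665 in OSVZ, 5.58 ± 2.59 in ISVZ and 12.2 ± 2.96 in VZ (SD, n = 3 each). The ratio of the germinal mean to CP was 85.3-fold, and the log2 difference, which the pseudocount shrinks, was -2.78 ± 0.208 (limma, adjusted p = 1.30e-06).

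The tables also hold an antisense entry, GLI3-AS-2 (chromosome 6, 24645317 to 24653991), which overlaps GLI3 by 3753 bases. It was picked out after its values were seen. It was at 6.8e-05, 0.243 and 0.0437 in CP, 3.23, 5.21 and 6.0 in OSVZ, 11, 8.14 and 11 in ISVZ, and 20.4, 25.0 and 32.4 in VZ, so it had the same order of layers as GLI3 with no overlap between any of the 4. Its log2 difference in OSVZ minus VZ was -2.22 ± 0.213, given as a description and without a p-value because of that choice. No source says that strand was used in counting, so reads of GLI3 and of this entry cannot be told apart where they overlap. Other entries that overlap a member reached at most 0.632 in any library, and GAS1 had no overlapping entry.

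GLI2, the main GLI activator (TSDBGID.4536, chromosome 1, 105523939 to 105838848), was listed at 0.0756, 0 and 0.00556 in CP. It was at 1.48, 0.662 and 0.865 in OSVZ, 2.26, 0.684 and 1.51 in ISVZ, and 2.14, 1.20 and 3.08 in VZ. The 3 germinal layers overlapped. The upper bounds deposited for the CP libraries reached 0.146, below the lowest germinal value. The log2 difference of CP from the germinal mean was -1.25 ± 0.223 (limma, adjusted p = 6.84e-04).

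GLI1, the activator most used as a readout of the pathway (TSDBGID.24128, chromosome 7, 42734056 to 42745143), was listed at 0, 0.0461 and 0 in CP, where the deposited upper bounds reached 0.103. It was at 2.12, 0.970 and 1.42 in OSVZ, 1.64, 0.685 and 1.88 in ISVZ, and 1.49, 0.966 and 2.46 in VZ. The germinal layers overlapped throughout, and OSVZ 1 was above 2 of the 3 VZ libraries. The log2 difference of CP from the germinal mean was -1.27 ± 0.210 (limma, adjusted p = 3.89e-04). TUBA1A, a tubulin that developing neurons make in quantity, is also listed at 0 in all 12 libraries, so a 0 is read here only as a listed value and no fold is given.

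Among the germinal layers, a subset of the genes was called lower in a subventricular layer than in VZ, and the rest were not called. In OSVZ minus VZ, GLI3, BOC and SMO were lower, 3 of the 9 tested, where 16.2% of all tested genes were called lower. GLI3 was 2.97-fold lower in OSVZ than in VZ, BOC 3.12-fold and SMO 1.96-fold, as ratios of mean levels. Their log2 differences were -1.36 ± 0.255 (adjusted p = 0.00278), -1.36 ± 0.295 (adjusted p = 0.00580) and -0.89 ± 0.198 (adjusted p = 0.00679, all limma).

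GLI2, GAS1 and CDON also had lower means in OSVZ than in VZ but did not pass, with log2 differences of -0.63 ± 0.273 (adjusted p = 0.112), -0.57 ± 0.304 (adjusted p = 0.194) and -0.40 ± 0.180 (adjusted p = 0.124, all limma). OSVZ and VZ did not overlap for CDON, but the share of all tested genes without such overlap is not given here. PTCH1, GLI1 and SUFU were closest between these layers. Their log2 differences, with the 95% interval of each, were -0.24 (-0.77 to 0.28, limma adjusted p = 0.495) for PTCH1, -0.06 (-0.63 to 0.50, adjusted p = 0.888) for GLI1 and -0.02 (-0.29 to 0.26, adjusted p = 0.941) for SUFU. Without OSVZ 3 the value of PTCH1 was -0.52 (limma, adjusted p = 0.0917), and without OSVZ 2 it was -0.07. The intervals of PTCH1 and GLI1 still allow a moderate difference, and that of SUFU a small one.

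In ISVZ minus VZ, GLI3 and BOC were lower, 2 of the 9, where 7.18% of all tested genes were called lower. Their log2 differences were -1.06 ± 0.255 (adjusted p = 0.0262) and -1.12 ± 0.295 (adjusted p = 0.0384, both limma), or 2.19-fold and 2.35-fold in mean level. Both calls were near the threshold: GLI3 lost it in 6 of 22 alternatives, with adjusted p = 0.0524 to 0.107, and BOC in 12, with 0.050 to 0.143 (limma), and without ISVZ 2, ISVZ 3, VZ 2 or VZ 3 neither was called. SMO had a log2 difference of -0.64 ± 0.198 and did not pass (limma, adjusted p = 0.0707). It was called with a pseudocount of 5 (limma, adjusted p = 0.0461) and without ISVZ 3 (0.0419).

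OSVZ and ISVZ gave no call for these genes. In OSVZ minus ISVZ, 0 of the 9 were called by limma and 0 had an unadjusted p under 0.05, where 0.603% of all tested genes were called. The log2 differences lay between -0.29 for GLI3 and 0.07 for GLI1. The 95% interval for GLI3 ran from -0.85 to 0.27 and that for GAS1 from -0.63 to 0.70. Differences within these ranges therefore remain possible with 3 libraries a layer.

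**Figure D2:**
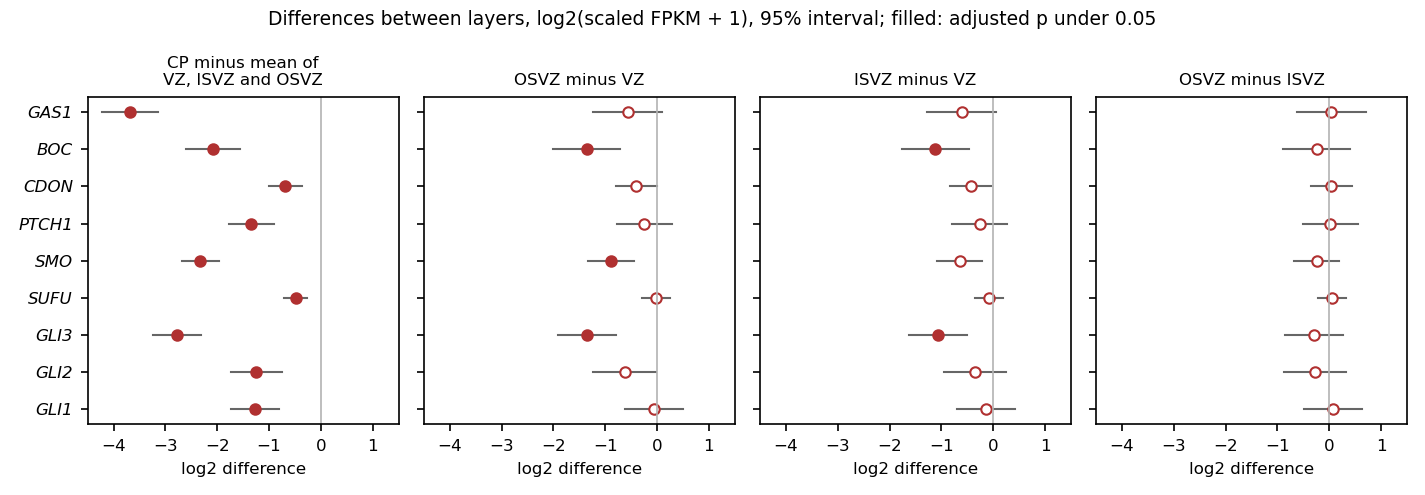
Log2 differences with 95% intervals of the 9 tested genes in 4 comparisons (CP minus the germinal mean, then OSVZ and ISVZ each minus VZ, then OSVZ minus ISVZ), with filled points where limma's adjusted p is under 0.05. All 9 points are filled in CP minus the germinal mean, GLI3, BOC and SMO in OSVZ minus VZ, GLI3 and BOC in ISVZ minus VZ, and none in OSVZ minus ISVZ.

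CP was also lower than each germinal layer taken alone for all 9 tested genes. In CP minus OSVZ, where 17.3% of all tested genes were called lower, the log2 differences ran from -3.50 for GAS1 (limma, adjusted p = 1.60e-05) to -0.50 for SUFU. In CP minus ISVZ and CP minus VZ, 24.2% and 28.7% of all tested genes were called lower. These comparisons share the CP libraries. As above, members with no CP library at 1 scaled FPKM reached the filter through the germinal layers alone. Their calls in these comparisons and in the F test say little beyond that. The calls of CDON and GLI2 in CP minus OSVZ were near the threshold, at adjusted p = 0.0348 and 0.0228, and were lost in 7 of 22 and 5 of 21 alternatives (highest adjusted p = 0.122 and 0.0901, limma). The F test over the 4 layers called 51.8% of all tested genes and all 9 members.

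By mean level the order from high to low was VZ, ISVZ, OSVZ, CP for SMO, GLI2, GLI3, HHIP, BOC and GAS1, and VZ, OSVZ, ISVZ, CP for PTCH1, GLI1, SUFU and CDON. Between the neighbours OSVZ and ISVZ, none of the 9 tested genes was called. Between the neighbours ISVZ and VZ, GLI3 and BOC were called among the 6 with the first order, both near the threshold. SMO was not called there.

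Ratios of levels within a library set related genes side by side. The 3 ratios were picked after the values were seen. BOC over CDON was 0.806, 1.02 and 0.707 in OSVZ, 1.35, 0.813 and 1.05 in ISVZ, and 1.70, 1.59 and 2.17 in VZ, without overlap of VZ with either layer. GLI3 over GLI1 was 2.28, 4.09 and 2.48 in OSVZ, 5.02, 4.47 and 2.90 in ISVZ, and 7.69, 10.1 and 6.31 in VZ, also without overlap. GLI3 over PTCH1 was 2.33, 2.18 and 0.834 in OSVZ, 4.57, 1.23 and 1.57 in ISVZ, and 4.19, 3.29 and 3.81 in VZ, where VZ overlapped ISVZ but not OSVZ.

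Over these 6 comparisons the two-sided exact permutation test gave p = 0.1 in 5 and 0.4 for GLI3 over PTCH1 in ISVZ against VZ. A p of 0.1 is the smallest that 3 against 3 libraries allow, and the Benjamini-Hochberg values were 0.12 and 0.4, so the threshold could not be reached.

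In the germinal layers, most of the genes had the same library highest or lowest. VZ 3 was the highest VZ library for all 10 members, against 34.2% of all tested genes, and VZ 2 the lowest for 8, against 31.4%. ISVZ 2 was the lowest ISVZ library for 9 of the 10, against 34.8% of all tested genes, and OSVZ 1 the highest OSVZ library for 7, against 31.1%. CP had no such library: CP 1, CP 2 and CP 3 were highest for 2, 3 and 5 members and lowest for 6, 4 and 0. PTCH1 was among the exceptions in OSVZ, with OSVZ 3 at 4.23 against 2.07 and 1.82.

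Choroid plexus markers stood the other way round in VZ: the sum over 7 of them was 563 in VZ 1, 2703 in VZ 2 and 44.1 in VZ 3. Among 12 radial glia genes other than GLI3, VZ 3 was highest for 6 and VZ 2 for 6, and ISVZ 2 was lowest for 8. Without VZ 1 and VZ 2, the log2 difference in OSVZ minus VZ was -1.71 for GLI3 (adjusted p = 0.0232), -1.87 for BOC (adjusted p = 0.0228) and -1.04 for SMO (adjusted p = 0.0557, all limma), so only the SMO call was lost. That fit leaves VZ with 1 library, which is assumed to vary like the other layers.

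**Figure D3:**
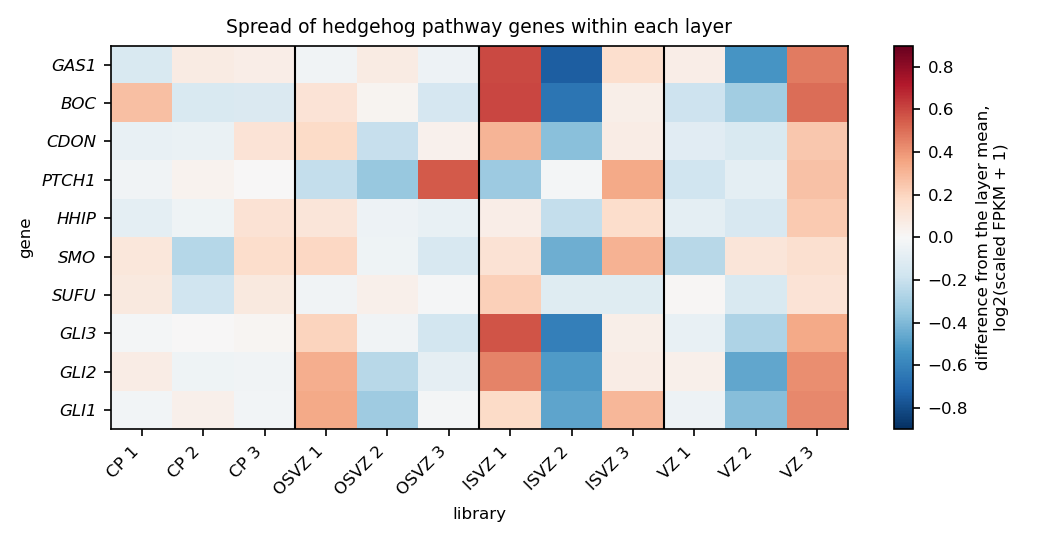
Difference of each library from the mean of its layer, in log2 of scaled FPKM plus 1, with the 10 genes down the page and the libraries of CP, OSVZ, ISVZ and VZ across. The VZ 3 column is above its layer mean for every gene, and ISVZ 2 is the lowest of ISVZ for 9 of 10.

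Over the 12 libraries the levels of the 9 tested genes ran in parallel: Pearson's r between members over 36 pairs ranged from 0.758 to 0.984, with a median of 0.899. This is a description only, since the libraries fall into layers and the points share library and layer.

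Marker sums moved with the same comparisons, and their part in the results was not tested. Radial glia genes were summed over 13, without GLI3 and with FABP7, which was listed at 0 throughout. This sum ranged from 89.7 to 98.5 in CP, 292 to 309 in OSVZ, 456 to 551 in ISVZ and 1016 to 1166 in VZ. The tested radial glia genes were also 13, with GLI3 and without FABP7. Of these, 12 were lower in CP than in the germinal layers and 13 lower in OSVZ than in VZ. Their median log2 difference in OSVZ minus VZ was -1.39. Sums of 10 genes of dividing cells ranged from 10.8 to 13.9 in CP, 105 to 159 in OSVZ, 163 to 292 in ISVZ and 239 to 277 in VZ.

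Sums of 9 intermediate progenitor genes ranged from 98.6 to 100.1 in CP, 369 to 532 in OSVZ, 476 to 656 in ISVZ and 503 to 638 in VZ. Their median log2 difference in OSVZ minus VZ was -0.16, much nearer to 0 than that of the radial glia list. Sums of 12 projection neuron genes ran the other way, from 3536 to 4221 in CP, 1664 to 1803 in OSVZ, 941 to 1173 in ISVZ and 468 to 767 in VZ. Ventral markers were present in all germinal layers. The sum of 13 interneuron and subpallium genes ranged from 35.5 to 105 in CP, 111 to 299 in OSVZ, 181 to 587 in ISVZ and 347 to 473 in VZ. Of these genes, GSX2 averaged 0.211 ± 0.133 in CP, 3.07 ± 0.773 in OSVZ, 8.15 ± 4.70 in ISVZ and 13.2 ± 3.10 in VZ (SD, n = 3 each). NKX2-1, which defines the medial ganglionic eminence, reached at most 0.365 in any library. Meningeal markers (8 genes) summed to 14.96 to 21.7 in CP, 3.47 to 3.95 in OSVZ, 2.90 to 3.15 in ISVZ and 5.77 to 68.9 in VZ.

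Other genes of the pathway, grouped by role, did not share 1 direction. In CP minus the germinal mean, 24.0% of all tested genes were called higher, beside the 28.7% called lower, and the median log2 difference of all tested genes was -0.05. As for the members, genes with no CP library at 1 scaled FPKM reached the filter through the germinal layers alone. Their calls say little beyond that, and some of the counts called lower below include such genes.

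Of the ligands and the genes for their release, 5 were tested, of which 1 was higher and 1 lower in CP, with a median of 0.36. DISP2, a relative of the ligand exporter DISP1, was higher in CP by 1.36 ± 0.153 on the log2 scale (limma, adjusted p = 2.50e-05), and SCUBE2, a secreted protein that helps to free the ligand, had a log2 difference of -0.73 ± 0.132 (limma, adjusted p = 7.41e-04). DISP1 and SCUBE3 were not called, at -0.11 and 0.36. The ligand DHH reached at most 0.172 scaled FPKM in any library and HHAT, the enzyme that palmitoylates hedgehog ligands, at most 0.674, both below the filter.

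Of the receptors and surface regulators, 8 of 11 were tested, with 2 higher and 3 lower in CP and a median of 0.23. ATP6AP2 and GPR161, a ciliary receptor that restrains the pathway, were higher by 1.29 and 0.34 on the log2 scale. ATP6AP2 was counted in this list although it is a subunit of the vacuolar proton pump rather than a hedgehog receptor. Among the lower ones, GPC3 and GPC6, which are glypicans, were at -0.87 and -0.52, and both lost the call without CP 2 (limma, adjusted p = 0.0518 and 0.120) and without CP 3 (0.0646 and 0.0853). GPC3 averaged 0.256 ± 0.122 in CP and 3.14 ± 1.79 in VZ (SD, n = 3 each), so it reached the filter through the germinal layers alone. MGRN1, at 0.13, and TMEM67, at 0.32, were not called.

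Of the kinases, ubiquitin ligases and adaptors that act on GLI proteins or SMO, 22 of 23 were tested, with 9 higher and 3 lower in CP and a median of 0.12. PRKACB, a catalytic subunit of protein kinase A, which marks GLI proteins for processing, was higher by 1.82, ARRB1, an arrestin, by 1.30, and DYRK2, a kinase, by 1.27. SPOPL, a relative of the adaptor SPOP, NUMB and STK36, the relative of the fly kinase fused, had log2 differences of -1.04, -0.58 and -0.37. STK36 lost its call without any 1 of the CP libraries (limma, adjusted p = 0.0653 to 0.103). The casein kinases CSNK1D and CSNK1E were both at -0.02 and were not called.

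Of the cilium list, 30 of 33 were tested, with 15 lower in CP, 3 higher and 12 not called, and a median of -0.35. BBS7, a subunit of the BBSome, had a log2 difference of -2.51 and EVC, a ciliary partner of SMO, one of -0.93. SMOC1, at -2.79, encodes a secreted matrix protein rather than a cilium protein. The 3 that were higher all belong to the kinesin-2 motor: KIF3B by 1.16, KIFAP3 by 0.97 and KIF3A by 0.75. TCTN1 and MKS1, at 0.03 and 0.05, were not called. In OSVZ minus VZ, where 16.2% of all tested genes were called lower and 11.7% higher, 14 of the 30 were lower and 1 higher, with a median of -0.43 against -0.02 for all tested genes. The sum of 7 motile cilia genes ranged from 33.3 to 48.5 in CP, 37.4 to 40.2 in OSVZ, 41.2 to 49.7 in ISVZ and 82.3 to 131 in VZ, and its part in this result was not tested.

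Of the genes described as hedgehog targets in other tissues, 10 of 19 were tested, with 1 higher and 7 lower in CP and a median of -1.03. CCND2, a G1 cyclin, had a log2 difference of -3.52, OLIG2, a transcription factor of oligodendrocyte and ventral progenitors, of -2.90, and SFRP1, a secreted Wnt antagonist, of -2.78. MYCN, a growth-promoting transcription factor, was higher in CP by 1.01. BCL2, at 0.30, and HSD11B2, at -0.29, were not called. The ventral targets NKX2-2, FOXA2 and NKX6-2 were below the filter, at most 1.35, 0.113 and 0.768 scaled FPKM in any library.

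**Figure D4:**
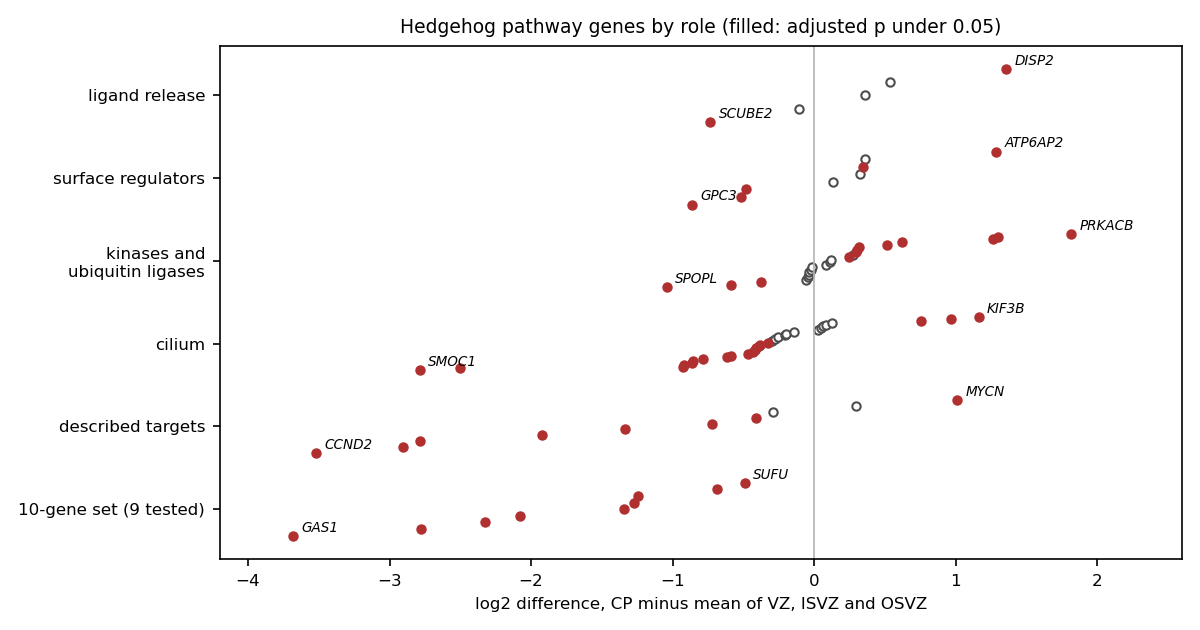
Log2 difference in CP minus the mean of OSVZ, ISVZ and VZ for each tested gene of the pathway, grouped by role, with filled points where limma's adjusted p is under 0.05. All 9 core members lie to the left of 0, from -3.68 for GAS1 to -0.49 for SUFU, while the ligand, surface and kinase groups lie on both sides.

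The genes most like each member over the 12 libraries, by Pearson's r of log2 scaled FPKM plus 1, were taken from 12385 tested genes with a symbol. Those values share libraries and layers and are a description. GLI3 was most like PALLD (0.998), MYO9B (0.996) and SOX21 (0.993). GAS1 was most like CCND1 (0.992), PAX6 (0.991) and DMRTA2 (0.991). SMO was most like INPPL1 (0.995), PMCH (0.992) and PHGDH (0.991). PMCH lies within another gene, PARPBP, so its value is uncertain. BOC was most like FBXO32 (0.988), GLDC (0.987) and TCF7L1 (0.985).

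For the other 5 tested genes the best values lay between 0.958 and 0.982. CDON was most like LMF2 (0.982), SPATA13 (0.969) and EVC (0.968), PTCH1 like RPAP1 (0.970), PBX2 (0.960) and PCBP3 (0.958), and GLI2 like CELSR1 (0.970), POLH (0.965) and FANCA (0.965). SUFU was most like SF1 (0.964), KMT2C (0.958) and KIF13B (0.957), and GLI1 like NEUROG1 (0.958), NCAPD3 (0.952) and KCNAB3 (0.951). No gene was named for more than 1 member.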

How the data were processed

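The members and gene lists were chosen with earlier results of these data known. The deposited values are FPKM per gene, in 1 table for each library and with a confidence range for each value, in a layout written by Cufflinks, per the file headers. The submitters' processing notes name HISAT2 and Cufflinks. Versions, build, annotation and strand setting are not given in the sources available. The labels give embryonic day 37, while table names carry another day, and the labels were followed. FPKM keeps no read count, so depth is unknown. The deposited ranges of the germinal values of the 10 genes had half-widths of 4.31% to 57.4% of the value, widest for HHIP.

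Values sharing a gene ID (360 IDs of 81418) were summed, and 4 IDs with a failed status were left out. Each library was scaled by its median ratio to the geometric mean over 10200 genes that reached 1 FPKM everywhere (factors 0.947 to 1.06). A gene was kept if 3 libraries or more had 1 scaled FPKM, and fitted with limma 3.58.1 in R 4.3.3 on log2 of scaled FPKM plus 1 (4 layers, trend, 8 residual degrees of freedom, two-sided), with Benjamini-Hochberg adjustment over 14101 genes. The fit was tested on simulated data. HHIP was tested by exact permutation. No 2 libraries held identical values.

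All 10 members are named. Of each other list, up to 3 called genes per direction with the largest difference of CP from the germinal mean and up to 2 uncalled genes with the smallest are named, and for each tested member the 3 genes most like it. A gene that this rule names among the surface regulators is not reported here. Symbols come from the tables. Alternatives were other scalings, pseudocounts and filters, a replicate block, and fits without 1 library or without VZ 1 and VZ 2.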

Additional observations from a re-analysis of the deposited data

How the results depend on the processing

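Over 22 alternatives, 1926 of 2016 values of single genes kept their direction and their side of the threshold, 46 lost the call, 10 gained it and 34 uncalled values near 0 changed sign. The 9 tested members were lower in CP than in the germinal layers under all of them, apart from PTCH1, GLI1 and GLI2, which a filter at 5 scaled FPKM removes. Members called in ISVZ minus VZ were 2, but 3 with a pseudocount of 5 (SMO added), 1 with a pseudocount of 0.1, 0 with no filter, 0 without VZ 1 and VZ 2, and 0 to 2 over fits that each left out 1 library (0 without ISVZ 2, VZ 2 or VZ 3, and SMO alone without ISVZ 3). SMO in OSVZ minus VZ was lost only without VZ 1 and VZ 2. The exact permutation p of HHIP was 0.0460 with a pseudocount of 0.1 and 0.0406 on FPKM as deposited. With a filter at 5, 1 gene of ligand release, 3 surface regulators and 11 cilium genes were called, for fewer genes were tested, against 2, 5 and 18, and 2 to 6 surface regulators were called when 1 library was left out.

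Signs that changed under quantile normalisation were those of GLI1 (0.0053) and SUFU (0.046) in OSVZ minus VZ, GLI1 (0.0030) and SUFU (0.0075) in ISVZ minus VZ, PTCH1 (-0.044) and CDON (-0.018) in OSVZ minus ISVZ, and DISP1 (0.047), CSNK1D (0.023) and TCTN1 (-6.2e-05) in CP minus the germinal mean. TCTN1 was also at -0.028 on FPKM as deposited and -0.0054 at equal totals, and CSNK1E at 0.0021 without VZ 1 and VZ 2. With 1 library left out, OSVZ minus VZ ranged from -0.52 to -0.07 for PTCH1, -0.26 to 0.15 for GLI1 and -0.087 to 0.043 for SUFU, and ISVZ minus VZ from -0.33 to 0.10 for GLI1. OSVZ minus ISVZ ranged from -0.26 to 0.19 for PTCH1, -0.16 to 0.23 for GLI1, -0.15 to 0.19 for CDON, -0.57 to 0.06 for BOC and -0.33 to 0.33 for GAS1. CP minus the germinal mean ranged from -0.059 to 0.021 for CSNK1D, -0.049 to 0.046 for CSNK1E and -0.033 to 0.13 for TCTN1. The cause of these changes was not tested.

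Over all genes, calls in OSVZ minus VZ were 3935, but 2578 without VZ 2 and 1189 without VZ 1 and VZ 2. In ISVZ minus VZ they were 1229, but 715 with a filter at 5, 403 to 812 without ISVZ 1, ISVZ 2, VZ 2 or VZ 3 and 107 without VZ 1 and VZ 2. In OSVZ minus ISVZ they were 85, with 2 to 556 over the alternatives.

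Libraries with the same replicate number deviated together from their layer means in 16 of 18 pairs at r above 0.1 (0.063 to 0.425 over all 18, against -0.363 to 0.175 for other pairs), and 10 of 12 libraries correlated best with their own number in every other layer. This is a hint from the data, since no label says what the numbers mark. With a replicate block, GLI2 in OSVZ minus VZ was also called (-0.63, limma adjusted p = 0.0444), which makes 4 members, the other counts of members stayed as they were, and 206 of all genes were called in OSVZ minus ISVZ. FPKM gives no depth, so precision is known only from the spread of 3 libraries per layer.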
